A study of Caenorhabditis elegans with 27 samples.

Results

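The ugt genes encode the UDP-glucuronosyltransferases, and this account follows their array values over 9 groups of treated and untreated worms of Caenorhabditis elegans. The genes were chosen by annotation and by a floor on their level: a probe set was taken where it was annotated to 1 gene whose symbol starts with ugt-, and where its log2 value was over 5 in at least 3 of 27 arrays. This left 41 probe sets of 37 genes, out of 68 ugt probe sets of 64 genes on the array. In all, 11102 of 22548 probe sets of any gene passed the same filter and were tested.

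UDP-glucuronosyltransferases are enzymes of the endoplasmic reticulum membrane that join a sugar from a UDP-sugar donor to small lipophilic compounds, which makes these more soluble and easier to export. This conjugation is called phase II of detoxification, after the oxidation carried out by cytochromes P450. Nematodes have a large family of such genes, many of them expressed in the intestine, and the sugar is often glucose. The substrates of most single worm enzymes are not known, so the genes are described below by treatment and not by substrate. An exception is ugt-22, which has been tied in the worm to the response to the anthelmintic albendazole.

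The values came from Affymetrix arrays of whole worms of strain GE24, which carries pha-1(e2123), a temperature-sensitive allele of a gene needed for development of the pharynx. The groups were worms given 0.2 or 2.0 mM dissolved organic carbon as HuminFeed (HF), a preparation of humic substances, and harvested at 3 days, worms with the same HF doses at 11 days, worms given 0.2 or 2.0 mM as HuminFeed-Hydroquinone (HF-HQ) at 3 days, and an untreated group in each of these 3 experiments, with 3 arrays a group. All of them, the untreated ones included, carried the allele, were started at 15 °C and were grown at 25 °C. Treated worms descended from worms already placed on treatment plates, so that exposure began before the harvested worms hatched, and no wild-type strain is among the samples used here. The age tag of every array reads larvae (L4), although the design speaks of adults. Nothing in the labels tells whether the 3 cultivations of a group were independent, so the p-values measure the spread between these arrays, which may be technical.

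Arrays of a group had correlations between 0.987 and 0.999 over the tested probe sets, and the lowest was in the 0.2 mM HF-HQ group, whose median SD of 0.134 was above the 0.0581 to 0.0942 of the other groups. The 3 experiments had separate distributions. The 75th percentile of an array lay between 9.28 and 9.39 in the HF-HQ experiment, between 7.35 and 7.42 in the HF experiment at 11 days, and between 7.45 and 7.53 in that at 3 days. Levels were therefore compared within an experiment, and ugt levels between experiments are given beside values after quantile normalization of all arrays. Marker sums are deposited values throughout. In the untreated 3-day worms of the HF experiment, the marker genes of intestine, sperm, neurons, and oocytes and germ line that were tested all averaged over log2 5, while 2 of 7 epidermal and 2 of 11 muscle markers averaged under it.

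Of the 27 ugt probe sets outside the filter, none was over log2 5 in any array, and the highest value, 4.67, belonged to ugt-14. At the threshold, the third-highest value was 5.06 for ugt-16, just inside, and 4.52 for ugt-53, just outside. Of the 41 that passed, 14 were over log2 5 in all 27 arrays, and 19 in at least 3 arrays of each experiment. Another 6 passed only through the HF experiment at 3 days, 2 only through that at 11 days and 4 only through the HF-HQ experiment. The probe sets of ugt-9, ugt-16 and ugt-21 passed with exactly 3 arrays, and ugt-9 did so through 1 group, 0.2 mM HF-HQ. Those of ugt-16, ugt-21 and ugt-43 were over log2 5 in treated but in no untreated arrays of HF at 3 days. The probe sets that passed only through HF at 11 days were ugt-41 and ugt-66. A probe set that passed through some groups only was favoured to be higher there, so differences of these genes between those groups and others rest on the values that chose them, and counts over the 41 are descriptions and are read against all tested probe sets.

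With 0.2 mM HF at 3 days, ugt transcripts rose more often than they fell: 19 of 41 probe sets rose, 3 fell and 19 did not pass the test, where passing means an adjusted p under 0.05 in limma. Among all 11102 tested probe sets 58.9% passed, 26.0% being higher and 32.9% lower. The median log2 change was 0.24 for the ugt probe sets and -0.03 for all tested. All 19 that rose averaged over log2 5 in a compared group, and the 3 that fell did not.

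The largest rise with 0.2 mM HF at 3 days was that of ugt-44. Its arrays read 10.88, 11.01 and 10.80 in treated worms, against 9.81, 9.84 and 9.75 in untreated worms. The 2 sets of arrays did not overlap, and the log2 change was 1.10 ± 0.09 (SE), 2.14-fold, with an adjusted p of 3.6e-09. Next came ugt-18, at 8.22 ± 0.05 with HF and 7.37 ± 0.06 without (SD, n = 3 arrays each here and below), a change of 0.84. Rises of 0.81 for ugt-16, 0.74 for ugt-6, 0.64 for ugt-62 and 0.63 for ugt-39 followed, of which that of ugt-16 is a description, since treated arrays chose it. The 3 that fell lay at low levels throughout this experiment. Of these, ugt-13 fell by 0.53 on the log2 scale and ugt-9 by 0.48. The third, ugt-11, fell by 0.31 with an adjusted p of 0.029, and it did not pass without control array 1, without treated array 1 or without treated array 3.

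With 2.0 mM HF at 3 days the same direction was more common still. Of 41 ugt probe sets 24 rose, 1 fell and 16 did not pass, against 60.9% passing among all tested, 28% higher and 32.9% lower. The median log2 change was 0.39 for the ugt probe sets and -0.02 for all tested. Of the 32 that averaged over log2 5 in a compared group, 21 rose and the others did not pass.

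The gene that rose most with 2.0 mM HF at 3 days was ugt-25. Its arrays read 5.78, 5.36 and 5.65 in treated worms, against 4.05, 4.06 and 3.63 in untreated worms. All 3 treated arrays lay over log2 5 and all 3 untreated ones under it, and the change was 1.68 ± 0.14 (SE), with an adjusted p of 1.3e-09. With 0.2 mM HF the arrays of ugt-25 read 3.98, 3.93 and 3.29, which overlapped those of untreated worms.

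A comparable dose pattern was seen for ugt-2. Its arrays read 7.62, 7.89 and 7.89 with 2.0 mM HF, against 6.71, 6.63 and 6.63 in untreated worms. The rise was 1.15 ± 0.11 (SE), with an adjusted p of 2e-08. With 0.2 mM HF the values of ugt-2 were 6.84, 6.83 and 6.61, which overlapped those of untreated worms in 1 array.

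For ugt-29, by contrast, the value rose at both doses. The arrays of ugt-29 read 6.47, 6.26 and 6.70 with 2.0 mM HF, against 5.33, 5.45 and 5.36 in untreated worms, a rise of 1.10 ± 0.19 (SE). With 0.2 mM HF each of the 3 arrays read 5.97, a rise of 0.59. Rises of 0.89 for ugt-9, 0.87 for ugt-62 and 0.85 for 1 probe set of ugt-46 completed the 6 largest at 2.0 mM. The single fall was in ugt-41, by 0.31, at 4.19 ± 0.18 with HF and 4.50 ± 0.12 without, and its groups overlapped.

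The 8 genes with a called change of at least 1 in any treatment, ugt-2, ugt-17, ugt-18, ugt-22, ugt-25, ugt-29, ugt-44 and ugt-63, are plotted array by array.

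**Figure D1:**
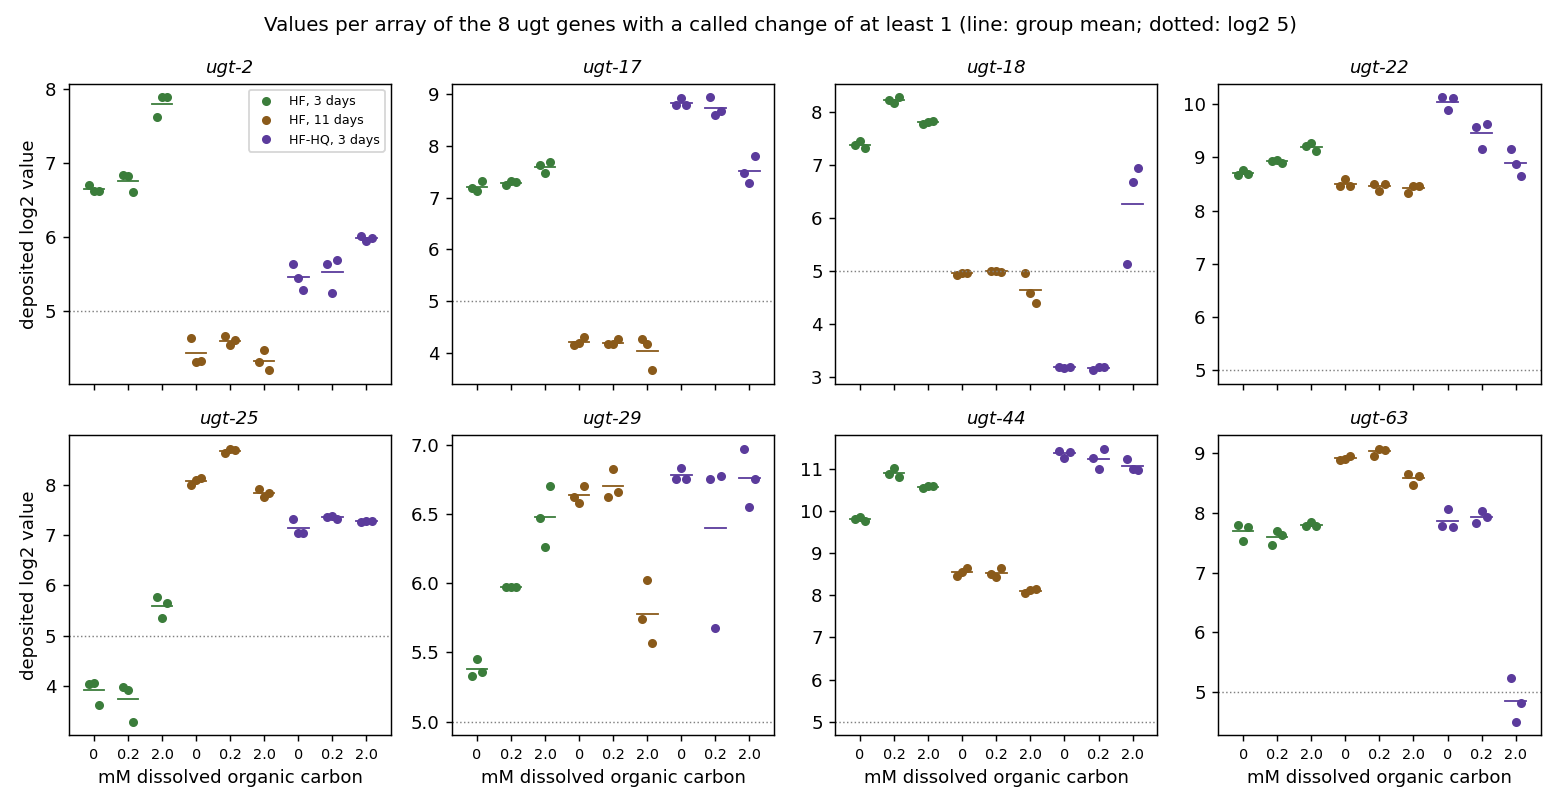
Deposited log2 values in each array (points; line, group mean) of the 8 ugt genes with a called change of at least 1 in a treatment, by dose in mM dissolved organic carbon and by experiment (colour); the dotted line marks log2 5. With HF-HQ at 2.0 mM ugt-18 lay at 5.14 to 6.94 and ugt-63 at 4.50 to 5.24, while in untreated worms of that experiment ugt-18 lay at 3.18 to 3.20 and ugt-63 at 7.77 to 8.06; levels between colours are not on 1 scale.

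Between the doses of HF at 3 days, 11 of 41 ugt probe sets differed, 9 of them higher and 2 lower with 2.0 than with 0.2 mM, against 21% of all tested, 13.4% higher and 7.65% lower. The median difference was 0.10 for the ugt probe sets and 0.04 for all tested. The largest was again ugt-25, at 5.60 ± 0.21 with 2.0 mM and 3.73 ± 0.38 with 0.2 mM, a difference of 1.86 ± 0.14 (SE). It was followed by ugt-9 with 1.37, ugt-2 with 1.04, ugt-13 with 1.0, ugt-12 with 0.88 and ugt-5 with 0.54. Lower with the higher dose were ugt-41, by 0.82, and ugt-44, by 0.33, and ugt-44 did not pass without array 2 of the 0.2 mM group.

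For 3 genes the doses of HF at 3 days moved in opposite directions against untreated worms. The arrays of ugt-9 read 3.38, 3.29 and 3.00 with 0.2 mM and 4.40, 4.56 and 4.83 with 2.0 mM, against 3.72, 3.66 and 3.72 in untreated worms. All of these values lay under log2 5, the level that the filter asks for. For ugt-13 the changes were -0.53 and 0.47, also under log2 5, and the rise did not pass without control arrays 1 or 2, or without treated arrays 1 or 3. For ugt-41 the changes were 0.51 and -0.31, with averages of 5.01 at 0.2 mM and 4.19 at 2.0 mM.

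Markers of other tissues moved in the same comparisons, and whole-worm RNA cannot tell fewer cells of a type from less RNA per cell. Of 17 tested intestinal markers, 14 rose with 0.2 mM and 15 with 2.0 mM HF at 3 days. The log2 of their summed linear levels was 15.59 to 15.66 with 0.2 mM and 15.70 to 15.75 with 2.0 mM, against 15.20 to 15.27 in untreated worms. All 20 oocyte and germ line markers fell at both doses, with sums of 15.05 to 15.07 and 15.08 to 15.12, against 15.53 to 15.58. Sperm markers went apart between the doses: 21 of 23 rose with 0.2 mM and 23 of 23 fell with 2.0 mM, with sums of 16.94 to 16.99 and 15.32 to 15.45, against 16.45 to 16.53. Of 11 muscle markers, 9 and 8 rose at the 2 doses, with sums of 14.91 to 15.01 and 15.04 to 15.13, against 14.65 to 14.68. The part of these shifts in the ugt changes was not tested.

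At 11 days fewer ugt probe sets passed with HF than at 3 days, as was so among all tested. With 0.2 mM, 3 of 41 ugt probe sets rose and 38 did not pass, against 4.0% passing among all tested, 3.22% higher and 0.784% lower. The median log2 change was 0.06 for the ugt probe sets and 0.02 for all tested. Of the 41, 24 averaged over log2 5 in a compared group, the 3 that rose among them, and the others averaged no higher than that in both groups. The 3 that rose were ugt-25, ugt-20 and ugt-62. For ugt-25 the arrays read 8.63, 8.72 and 8.70 with HF, against 8.0, 8.09 and 8.13 without, a rise of 0.61 ± 0.14 (SE), adjusted p 0.012. Its 2 groups did not overlap. The rise of ugt-20 was 0.49 (adjusted p 0.046), with overlapping arrays, and that of ugt-62 was 0.41 (adjusted p 0.035).

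These 3 calls depended on single arrays. Without control array 1 none of the 41 passed in limma, while 9 had an unadjusted p under 0.05. Without control array 3, treated array 1 or treated array 3, 1 passed. The call of ugt-62 was lost without any 1 of the 6 arrays compared. That of ugt-20 was lost without control arrays 1 or 3 or treated arrays 1 or 3, and that of ugt-25 without control array 1 (adjusted p 0.058). With arrays centred on their medians ugt-25 was higher and ugt-26 lower, 1 in each direction, and with quantile normalization 2 were higher, ugt-25 and ugt-62, and 1 was lower, ugt-26.

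With 2.0 mM HF at 11 days the direction was the other way. Of 41 ugt probe sets 2 rose, 8 fell and 31 did not pass, against 28.3% passing among all tested, 13.4% higher and 14.8% lower, so that passing was about as common as in the whole array. The median log2 change was -0.10 for the ugt probe sets and -0.01 for all tested. Of the 25 that averaged over log2 5 in a compared group, 9 passed. Without control array 2, or without treated array 3, 6 of the 41 passed.

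The largest fall with 2.0 mM HF at 11 days was in ugt-29. Its arrays read 5.74, 6.02 and 5.57 with HF, against 6.62, 6.58 and 6.70 without. The groups did not overlap, and the value fell by 0.86 on the log2 scale (adjusted p 0.0017), in a gene that rose by 1.10 with the same dose at 3 days. The next falls were 0.53 in ugt-26, 0.45 in ugt-41 and 0.45 in ugt-44. A fall of 0.44 in the ugt-50 probe set 192148_at did not pass without control array 2 or treated array 3. A fall of 0.35 in ugt-62 did not pass without control array 2 or without treated arrays 1 or 3. The 2 rises were 0.41 in ugt-66, and 0.33 in ugt-47, which did not pass without control array 1 or treated array 3.

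Between the doses at 11 days, 13 ugt probe sets differed, 1 of them higher and 12 lower with 2.0 than with 0.2 mM, against 30.5% of all tested, 12.2% higher and 18.3% lower. After quantile normalization these were 3 higher and 9 lower. The difference had a median of -0.17 for the ugt probe sets and -0.01 for all tested. The largest falls were 0.92 in ugt-29, 0.85 in ugt-25 and 0.76 in ugt-62, and ugt-66 was 0.36 higher. For ugt-62 the 2 doses differed from untreated worms in opposite directions at this age, by 0.41 and -0.35.

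Intestinal markers at 11 days showed 2 rises with 0.2 mM HF, and 3 rises and 3 falls with 2.0 mM, out of 17. Their summed log2 levels were 14.56 to 14.59 and 14.53 to 14.59, against 14.54 to 14.60 in untreated worms, with 4 of 17 markers averaging under log2 5 in each group. Sperm markers rose in 19 of 23 cases at each dose, with sums of 11.69 to 11.72 and 11.73 to 12.06, against 10.73 to 10.97. Of 20 oocyte and germ line markers 15 rose with 2.0 mM, with sums of 15.52 to 15.59 against 15.25 to 15.31, and 1 rose with 0.2 mM. Their part in the result was not tested.

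With 0.2 mM HF-HQ at 3 days 2 of 41 ugt probe sets passed the test, 1 higher and 1 lower, against 30.2% of all tested, 15.9% higher and 14.3% lower. The median log2 change was -0.00 for the ugt probe sets and 0.05 for all tested. The rise was in ugt-9, whose arrays read 5.18, 5.42 and 5.45 with HF-HQ, against 4.53, 4.49 and 4.23 without. These are the arrays through which ugt-9 passed the filter, so the rise of 0.93 is given as a description.

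The fall with 0.2 mM HF-HQ was in ugt-22, the gene tied to albendazole. Its arrays read 9.57, 9.16 and 9.63 with HF-HQ, against 10.13, 9.90 and 10.12 without, a fall of 0.59 ± 0.11 (SE), adjusted p 0.00033. The arrays did not overlap, but in a fit of only the arrays compared the adjusted p was 0.077. The arrays of this group spread more widely than those of the others, as for ugt-29, at 6.75, 5.68 and 6.77. Without treated array 1 there were 1 rise and 5 falls, those of ugt-12, ugt-22, ugt-29, ugt-50 and ugt-58. Without treated array 3 there were 1 rise and 3 falls, those of ugt-22, ugt-29 and ugt-58. With arrays centred on their medians there were 3 rises, of ugt-6, ugt-9 and ugt-26, and 1 fall.

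With 2.0 mM HF-HQ falls of ugt transcripts outnumbered rises. Of 41 probe sets 4 rose, 17 fell and 20 did not pass, against 23.5% passing among all tested, 13.2% higher and 10.3% lower. The median log2 change was -0.19 for the ugt probe sets and -0.02 for all tested. Of the 32 that averaged over log2 5 in a compared group, 4 rose and 13 fell.

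The largest rise was in ugt-18 and the largest fall in ugt-63, each with 1 group averaging under log2 5, where no detection calls were used and the size of a change is uncertain. For ugt-18 the arrays read 5.14, 6.68 and 6.94 with HF-HQ, against 3.20, 3.18 and 3.20 without. All treated arrays were higher, with the first of them well under the other 2, and the change was 3.06 ± 0.26 (SE), adjusted p 3.1e-09. With 0.2 mM HF-HQ the arrays of ugt-18 read 3.13, 3.20 and 3.19, close to those of untreated worms.

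For ugt-63 the arrays read 5.24, 4.50 and 4.82 with 2.0 mM HF-HQ, against 7.78, 8.06 and 7.77 without. The fall was 3.02 on the log2 scale (SE 0.12), with an adjusted p of 1.2e-14, and all treated arrays lay more than 2 log2 units under the lowest untreated one. With 0.2 mM HF-HQ the arrays of ugt-63 read 7.84, 8.03 and 7.94. At the lower dose the arrays of ugt-18 and ugt-63 thus overlapped those of untreated worms.

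Other large falls with 2.0 mM HF-HQ were in ugt-17 and ugt-22. For ugt-17 the arrays read 7.47, 7.27 and 7.79 with HF-HQ, against 8.79, 8.91 and 8.78 without, a fall of 1.32. For ugt-22 they read 9.15, 8.87 and 8.65 with HF-HQ, against 10.13, 9.90 and 10.12 without, a fall of 1.16. Neither gene's groups overlapped, and ugt-22 fell at both doses of HF-HQ. For ugt-43, which lay near or under log2 5, the values were 3.78 ± 0.57 with HF-HQ and 4.78 ± 0.33 without, a fall of 1.0, with an adjusted p of 0.076 in a fit of only the arrays compared. Falls of 0.86 in 1 probe set of ugt-46 and 0.84 in ugt-26 followed. For ugt-9, which was higher with 0.2 mM, a fall of 0.35 did not pass without control arrays 1 or 2 or without treated array 2. The other rises were 0.53 in ugt-23, 0.53 in ugt-2 and 0.45 in the ugt-50 probe set 194023_s_at. The last of these did not pass without control array 2 or without treated arrays 1 or 2. That rise is a description, since the treated arrays helped to bring the probe set past the filter.

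Between the doses of HF-HQ 21 ugt probe sets differed, 5 of them higher and 16 lower with 2.0 than with 0.2 mM, against 33.2% of all tested, 17.5% higher and 15.7% lower. The median difference was -0.16 for the ugt probe sets and -0.03 for all tested. The difference was 3.08 for ugt-18 and -3.08 for ugt-63, followed by -1.28 for ugt-9, a description since the 0.2 mM arrays chose it, -1.21 for ugt-17, -1.06 for ugt-26 and -1.0 for ugt-43. In a fit of only these arrays, 1 was higher and 10 lower, and after quantile normalization 2 were higher and 17 lower.

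The intestinal markers went the other way from the ugt genes with 2.0 mM HF-HQ. Of 17 markers 11 rose and 1 fell, with a median change of 0.48, and the summed log2 level was 16.79 to 16.82 with HF-HQ, against 16.28 to 16.37 without. With 0.2 mM HF-HQ 5 rose and 1 fell, and the sum was 16.37 to 16.47. Of 23 sperm markers, 1 fell with 2.0 mM and 19 rose with 0.2 mM, and of 20 oocyte and germ line markers, 4 fell with 2.0 mM and 6 with 0.2 mM. Their part in the ugt changes was not tested.

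**Figure D2:**
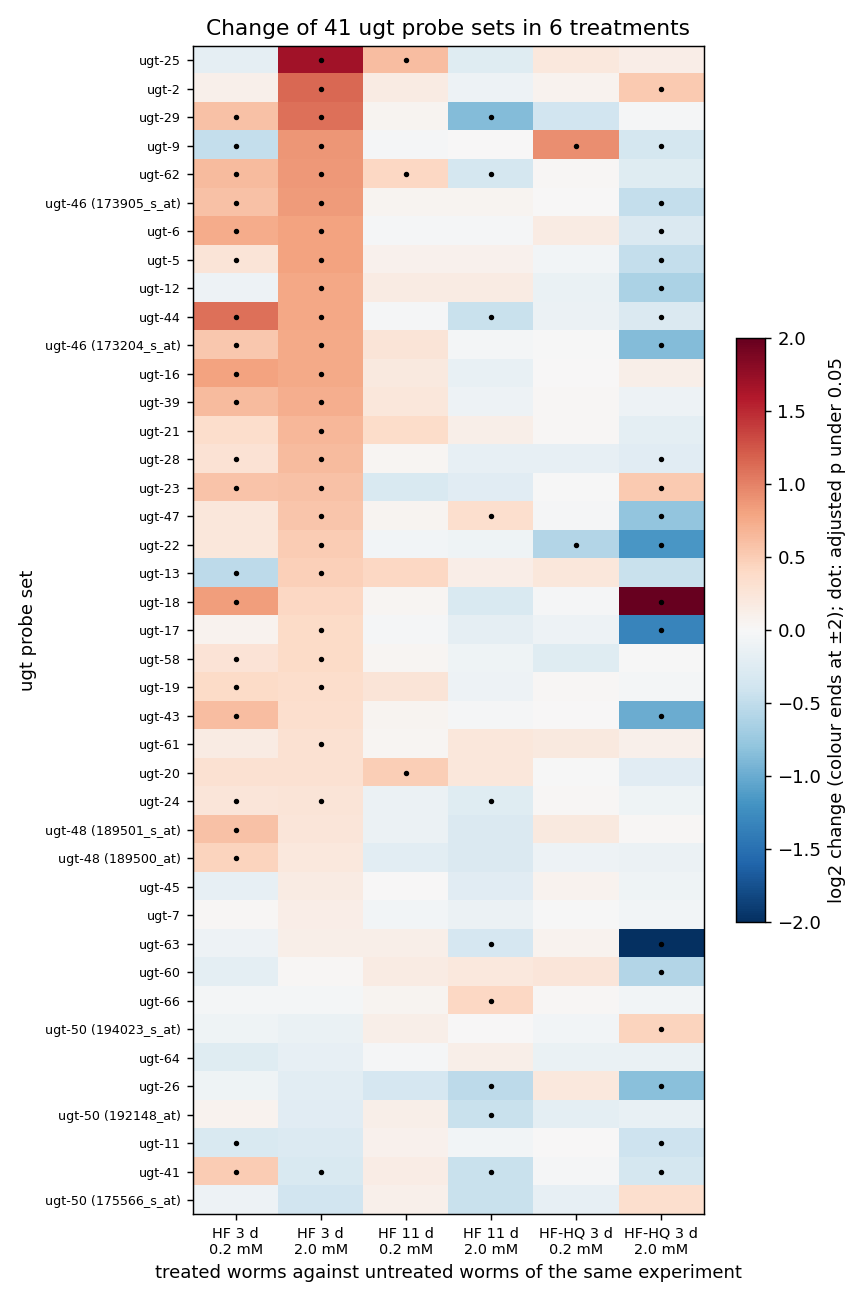
Log2 change of each of 41 ugt probe sets (rows, ordered by the change with 2.0 mM HF at 3 days) in 6 treatments against untreated worms of the same experiment (columns); colour runs from -2 to 2 and a dot marks an adjusted p under 0.05. The 2 columns of HF at 3 days hold 19 and 24 rises, and the column of 2.0 mM HF-HQ holds 17 falls and 4 rises.

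Over the 6 treatments 37 of 41 probe sets passed in at least 1, against 85.9% of all tested. The exceptions were ugt-7, ugt-45, ugt-64 and the ugt-50 probe set 175566_s_at. Changes of ugt-7 ran between -0.11 and 0.13, those of ugt-64 between -0.24 and 0.11, those of ugt-45 between -0.22 and 0.16, and those of 175566_s_at between -0.45 and 0.34. With 2.0 mM HF 175566_s_at passed, lower, at 3 days under quantile normalization or without control array 1, and at 11 days without treated array 1 or without the 0.2 mM HF-HQ arrays in the fit. The half-width of a 95% interval, without adjustment for many tests, was 0.24 or 0.25 for the median ugt probe set. Changes near or under that size could be missed, and the size needed to pass differed between probe sets and comparisons.

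**Figure D3:**
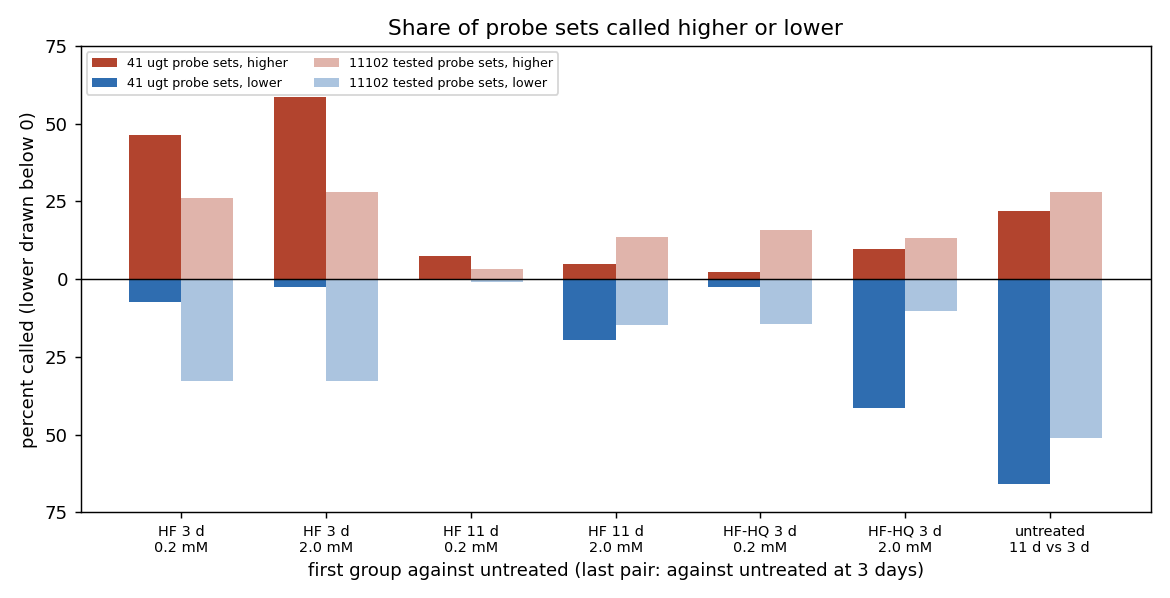
Percent of the 41 ugt probe sets (dark bars) and of 11102 tested probe sets (pale bars) that were called higher (above 0) or lower (drawn below 0) in each treatment against untreated worms, and in untreated worms at 11 against 3 days. The ugt bar for higher stands above that of all tested probe sets with both HF doses at 3 days and 0.2 mM HF at 11 days, and the ugt bar for lower with 2.0 mM HF at 11 days, 2.0 mM HF-HQ and age.

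In untreated worms most ugt transcripts were lower at 11 than at 3 days. Of 41 probe sets 9 were higher, 27 lower and 5 did not pass, against 79.1% passing among all tested, 27.9% higher and 51.2% lower. The median log2 difference was -0.97 for the ugt probe sets and -0.24 for all tested. After quantile normalization the ugt median was -0.90 and that of all tested was 0.04, with 10 higher and 27 lower. No ugt probe set that passed changed direction between the deposited, centred and quantile-normalized values. Age and experiment cannot be told apart here, since each age was its own experiment.

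The largest rise with age was again in ugt-25. Its arrays read 8.0, 8.09 and 8.13 at 11 days, against 4.05, 4.06 and 3.63 at 3 days. The difference was 4.17 ± 0.14 (SE), and 4.59 after quantile normalization, against 3-day values under log2 5, which leaves its size uncertain. The rises that followed were 2.48 in ugt-66, at 5.38 ± 0.17 against 2.90 ± 0.07, and 2.19 in ugt-41, at 6.68 ± 0.11 against 4.50 ± 0.12, with 3.13 and 2.53 after quantile normalization. These are descriptions, since both passed the filter only through HF at 11 days. Smaller rises were 1.58 in the ugt-50 probe set 175566_s_at (quantile-normalized 2.06), 1.26 in ugt-29 (1.5) and 1.22 in ugt-63 (1.42).

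The largest fall with age was in ugt-47, at 4.75 ± 0.09 in 11-day and 8.08 ± 0.02 in 3-day worms, a fall of 3.33. After quantile normalization the change was -3.15. For ugt-17 the arrays read 4.15, 4.20 and 4.31 at 11 days, against 7.19, 7.13 and 7.31 at 3 days, a fall of 2.99, with a change of -2.96 after quantile normalization. For ugt-18 they read 4.93, 4.97 and 4.97, against 7.37, 7.44 and 7.32, a fall of 2.42, with -2.26 after quantile normalization. In each of these 3 genes every array lay under log2 5 at 11 days and over log2 7 at 3 days. Next came ugt-5 with a fall of 2.37 (quantile-normalized change -2.75), ugt-26 with 2.22 (-2.03) and ugt-2 with 2.22 (-2.17). That of ugt-5 is a description, since it passed the filter only through HF at 3 days.

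Intestinal markers fell in 14 of 17 cases with age and rose in 3, with a median of -1.51 and summed log2 levels of 14.54 to 14.60 at 11 days, against 15.20 to 15.27 at 3 days. All 23 sperm markers were lower, with a median of -5.59 and sums of 10.73 to 10.97 at 11 days, against 16.45 to 16.53 at 3 days. Muscle markers were lower in 9 of 11 cases, with sums of 13.35 to 13.46 against 14.65 to 14.68. Of 7 epidermal markers 4 were lower and 2 higher, with a median of -1.18 and sums of 12.28 to 12.56 against 14.59 to 14.73. Of 20 oocyte and germ line markers 12 were lower and 2 higher. The part of these shifts in the ugt changes was not tested.

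**Figure D4:**
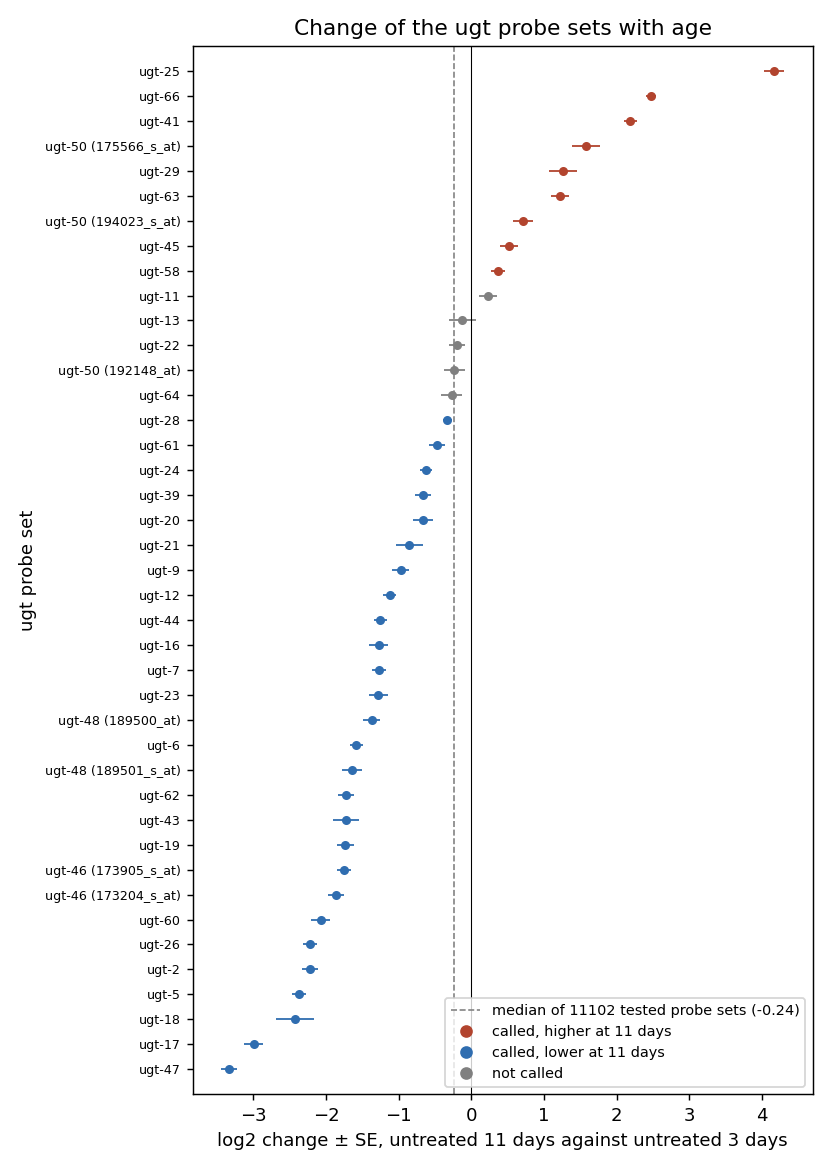
Log2 difference ± SE of each of 41 ugt probe sets between untreated worms at 11 and at 3 days, ordered by size; red and blue points passed the test, grey ones did not, and the dashed line is the median of 11102 tested probe sets, -0.24. The points run from -3.33 for ugt-47 up to 4.17 for ugt-25, with 27 of 41 in blue.

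Whether the response to HF differed between the ages was tested as a difference of responses, each within its own experiment. Age and experiment cannot be told apart in these differences either, since each age was its own experiment. With 0.2 mM HF the response of 14 ugt probe sets differed, 3 of them higher and 11 lower at 11 than at 3 days, against 42.7% of all tested, 26.1% higher and 16.6% lower. The difference had a median of -0.17 for the ugt probe sets and 0.07 for all tested. With arrays centred on their medians 2 were higher and 18 lower. The strongest was ugt-44, which changed by -0.03 at 11 days and by 1.10 at 3 days, a difference of -1.12 ± 0.13 (SE).

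With 2.0 mM HF the response of 25 ugt probe sets differed, 1 of them higher and 24 lower at 11 than at 3 days, against 62.0% of all tested, 32.7% higher and 29.3% lower. The median difference was -0.51 for the ugt probe sets and 0.02 for all tested. The largest was that of ugt-29, which fell by 0.86 at 11 days and rose by 1.10 at 3 days, a difference of -1.96 ± 0.27 (SE), adjusted p 2e-06. For ugt-25 it was -1.92 ± 0.20 (SE), in a gene that was already at 8.08 in untreated 11-day worms, against 3.91 at 3 days (8.78 and 4.19 after quantile normalization). Differences of -1.25 for ugt-2, -1.22 for ugt-62 and -1.22 for ugt-44 followed. Of the 24 probe sets that rose with 2.0 mM HF at 3 days, 1 rose, 4 fell and 19 did not pass at 11 days (79.2%), against 66.4% not passing, 27.6% falling and 5.96% rising among the 3106 tested probe sets that rose at 3 days. The 4 that fell were ugt-24, ugt-29, ugt-44 and ugt-62. Among the 19, ugt-2, ugt-5, ugt-6, ugt-9, ugt-13, ugt-16, ugt-17, ugt-19 and ugt-21 had no array over log2 5 at 11 days. For ugt-2 the averages at 11 days were 4.43 without HF and 4.33 with 2.0 mM HF. The size of a change at such levels is uncertain, and the part of low levels in these counts was not tested.

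Intestinal markers also differed between the ages, with 9 of 17 lower in their response to 0.2 mM HF and 12 of 17 lower in that to 2.0 mM at the later age. Markers of oocytes and the germ line were higher in 17 and 19 of 20 cases, and all 23 sperm markers were higher in the response to 2.0 mM. The part of these shifts in the result was not tested.

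The preparations were compared at matched dose and age, again as a difference of responses, for 2 pairs. The submitters call the second preparation HuminFeed-Hydroquinone. At 0.2 mM the response of 16 ugt probe sets differed, 2 of them higher and 14 lower with HF-HQ than with HF, against 40.2% of all tested, 24.4% higher and 15.8% lower. The difference had a median of -0.32 for the ugt probe sets and 0.04 for all tested. For ugt-44 the change was -0.12 with HF-HQ and 1.10 with HF, a difference of -1.21 ± 0.13 (SE). Differences of -0.97 for ugt-29, -0.82 for ugt-22 and -0.80 for ugt-16 followed, while those of ugt-9 (1.41) and ugt-13 (0.77) were positive. Those of ugt-9, ugt-13 and ugt-16 are descriptions, since arrays of these comparisons chose them. That of ugt-13 did not pass without array 2 of 0.2 mM HF-HQ.

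At 2.0 mM the response of 29 ugt probe sets differed, 3 of them higher and 26 lower with HF-HQ than with HF, against 48.2% of all tested, 27.6% higher and 20.6% lower. The median difference was -0.64 for the ugt probe sets and 0.05 for all tested. Of the 24 probe sets that rose with 2.0 mM HF, 2 rose, 11 fell (45.8%) and 11 did not pass with 2.0 mM HF-HQ. Of all 3106 tested probe sets that rose with 2.0 mM HF, 24.9% rose, 9.01% fell and 66.1% did not pass. The 2 that rose in both were ugt-2 and ugt-23. Among the 24, ugt-5, ugt-16, ugt-19 and ugt-21 passed the filter only through HF at 3 days and had no HF-HQ experiment array over log2 5. The 11 that fell include ugt-5, and ugt-9, which averaged 4.07 with 2.0 mM HF-HQ and 4.41 without. The size of a change at such levels is uncertain, and the part of low levels in these counts was not tested.

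The largest difference of responses was that of ugt-63, which fell by 3.02 with HF-HQ and changed by 0.11 with HF, a difference of -3.13 ± 0.17 (SE), adjusted p 5.2e-12. For ugt-18 the change was 3.06 with HF-HQ and 0.42 with HF, a difference of 2.64 ± 0.36 (SE). For ugt-17 it was -1.32 with HF-HQ and 0.39 with HF, and for ugt-22 it was -1.16 with HF-HQ and 0.50 with HF. The difference of ugt-25 was -1.54, from a change of 0.14 with HF-HQ and 1.68 with HF.

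For 12 of 41 probe sets the responses at 2.0 mM did not differ past the threshold, which does not show that they were alike, since the half-width of the 95% interval was 0.35 for the median ugt probe set and up to 0.75. The 2 preparations were also run in separate experiments whose untreated worms differed. In untreated 3-day worms ugt-18 averaged 3.19 ± 0.01 in the HF-HQ and 7.37 ± 0.06 in the HF experiment, and 3.01 and 7.93 after quantile normalization. The starting level of ugt-25 was 7.14 in the HF-HQ and 3.91 in the HF experiment, and 5.96 and 4.19 after quantile normalization. Preparation and experiment cannot be told apart in these 2 comparisons. Intestinal markers differed too, with 10 of 17 lower with HF-HQ at 0.2 mM, and 1 higher and 7 lower at 2.0 mM, where all 23 sperm markers were higher, against 11 higher and 4 lower at 0.2 mM. At 0.2 and 2.0 mM, 14 and 13 of 20 oocyte and germ line markers were higher, and 5 and 8 of 11 muscle markers were lower. Their part in the result was not tested.

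**Figure D5:**
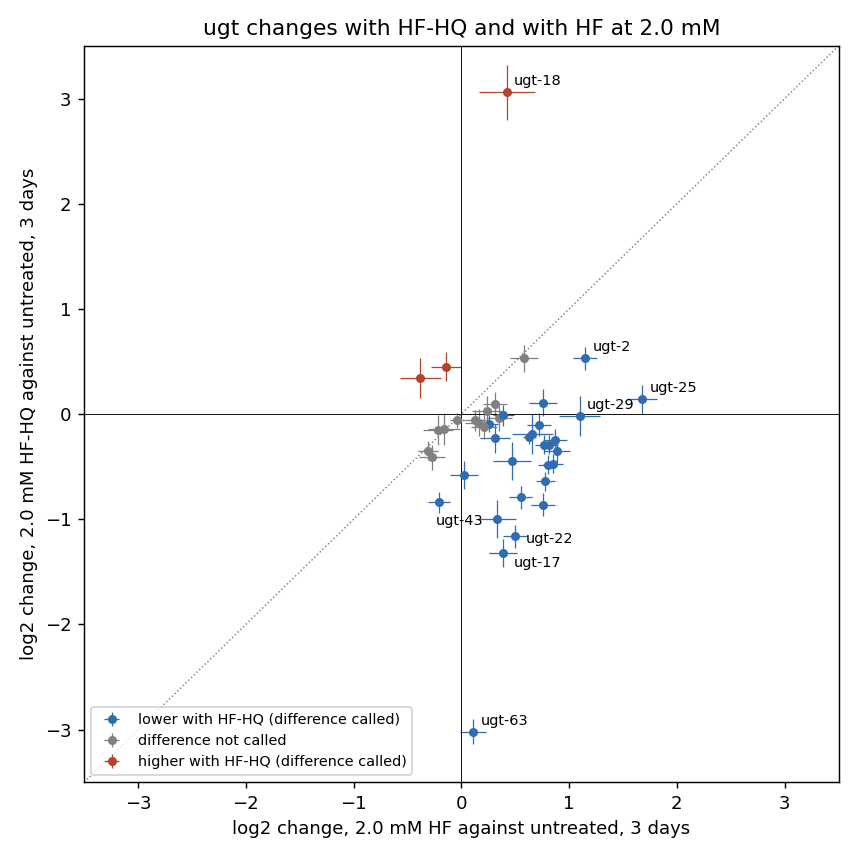
Log2 change ± SE of 41 ugt probe sets with 2.0 mM HF-HQ (vertical) and with 2.0 mM HF (horizontal), each against untreated 3-day worms of its own experiment; the dotted line marks equal change. Of the points, 26 lie under the line with a called difference (blue) and 3 above it (red), with ugt-63 at -3.02 and ugt-18 at 3.06 with HF-HQ as the extremes.

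Genes with several probe sets gave a check of the values. The 2 probe sets of ugt-46 rose with both HF doses at 3 days, by 0.54 and 0.58 with 0.2 mM and by 0.76 and 0.85 with 2.0 mM, and both fell with 2.0 mM HF-HQ, by 0.86 and 0.47. The 2 of ugt-48 rose with 0.2 mM HF at 3 days, by 0.45 and 0.59, and passed in no other treatment. The 3 of ugt-50 differed among themselves: with age 175566_s_at rose by 1.58 and 194023_s_at by 0.71, while 192148_at changed by -0.23 and did not pass (2.06, 0.91 and -0.01 after quantile normalization). No array of 194023_s_at at either age, and none of 175566_s_at at 3 days, was over log2 5 in the HF experiments, so the sizes of these rises are uncertain. With 2.0 mM HF-HQ the changes of the 3 ugt-50 probe sets were 0.34, 0.45 and -0.15, in the order 175566_s_at, 194023_s_at and 192148_at. Of these 194023_s_at alone passed, which is a description, since the treated arrays helped to choose it. A probe set shared by ugt-22 and Y43D4A.2, which is not among the 41, fell by 1.20 with 0.2 mM HF-HQ (adjusted p 0.0015) and by 1.08 with 2.0 mM HF-HQ (adjusted p 0.0033). Probe sets that may cross-match near-identical genes, marked _s_at, were 14 of the 41.

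Many ugt genes lie beside one another. In the RefSeq annotation of assembly WBcel235 there were 12 clusters with at most 1 other gene between neighbouring ugt genes, which held 37 of 67 ugt genes and 20 of the 37 genes described here. In 8 cases neighbours were both measured, and they did not always move together, as the following cases, chosen after their values were seen, show. The neighbours ugt-47 and ugt-17 both fell with age, by 3.33 and 2.99, and both fell with 2.0 mM HF-HQ, by 0.79 and 1.32. In the cluster of ugt-18 and ugt-16, ugt-18 rose by 3.06 with 2.0 mM HF-HQ, while ugt-16 changed by 0.11 and did not pass. In the cluster of ugt-25, ugt-28 and ugt-26, ugt-25 rose by 4.17 with age, while ugt-28 fell by 0.33 (quantile-normalized change -0.17) and ugt-26 by 2.22. The neighbours ugt-43 and ugt-44 rose with 0.2 mM HF at 3 days, by 0.61 and 1.10, and fell with 2.0 mM HF-HQ, by 1.0 and 0.29, the rise of ugt-43 being a description.

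Other genes of the conjugation pathway were read from lists of pathway genes, with 1 probe set per gene. Among all tested probe sets 58.9% passed with 0.2 mM and 60.9% with 2.0 mM HF at 3 days, 32.9% lower at each. At 11 days the shares passing were 4.0% and 28.3%, and with HF-HQ they were 30.2% and 23.5%. With age 79.1% passed, 27.9% higher and 51.2% lower. Whether a list differed from all tested probe sets was not tested. A list of genes around UDP-sugar supply was tested for 11 of 17 genes. It is wider than that supply, as it also holds pst-2 and sqv-2, which do not supply UDP-sugars. With HF at 3 days 4 rose and 3 fell at 0.2 mM, and 3 rose and 3 fell at 2.0 mM. The rises at both doses include that of pst-2, by 0.35 and 0.57. At 2.0 mM the largest rise was 0.71 in nstp-1, a nucleotide sugar transporter, and the largest fall was 0.75 in pgm-3. With HF-HQ 1 rose and 2 fell at 0.2 mM, and 1 rose at 2.0 mM. Medians of the list lay between -0.11 and 0.04 in the 6 treatments, and with age 2 rose and 7 fell.

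Glutathione S-transferases and other conjugating enzymes were tested for 23 of 40 genes. With HF at 3 days 13 rose and 4 fell at 0.2 mM, and 13 rose and 2 fell at 2.0 mM, with medians of 0.30 and 0.45. The largest rise was in gst-24, by 2.20 and 1.63. With 2.0 mM HF-HQ 8 rose and 3 fell, with a median of 0.11, and gst-4, a glutathione S-transferase widely used as a reporter of SKN-1, fell by 1.73. At 11 days 4 rose and 1 fell with 0.2 mM HF, and 2 rose and 4 fell with 2.0 mM. With 0.2 mM HF-HQ 8 rose and 1 fell. With age 3 rose and 17 fell.

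Among multidrug exporters, membrane pumps that carry conjugates and drugs out of cells, 10 of 22 genes were tested. With HF at 3 days 4 rose and 2 fell at 0.2 mM, and 4 rose and 1 fell at 2.0 mM. The P-glycoprotein gene pgp-8 rose most, by 1.34 and 1.32. With 2.0 mM HF-HQ 1 fell, mrp-4 by 0.28. At 11 days 1 rose with 0.2 mM HF, and 3 rose and 1 fell with 2.0 mM.

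Of the transcription factors, cofactors and other regulators of detoxification, such as wdr-23, 14 of 19 were tested. The counts do not separate activators from repressors. With HF at 3 days 5 rose and 4 fell at 0.2 mM, and 6 rose and 3 fell at 2.0 mM. With HF-HQ 5 rose and 2 fell at 0.2 mM, and 5 rose and 1 fell at 2.0 mM, where pqm-1, a zinc finger factor, rose by 1.77. At 11 days 1 rose with 0.2 mM HF, and 3 rose and 4 fell with 2.0 mM. The largest fall there was 0.57 in nhr-8, a nuclear receptor known for drug resistance in the worm, which rose by 0.70 and 0.33 at the 2 doses at 3 days, and the largest rise was 0.49 in daf-12.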

How the data were processed

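The authors deposited log2 values for 22625 probe sets in 27 arrays, made with GCRMA per the submitters' processing notes, whose version is not given in the sources used here. The 77 array controls were left out, and the 11102 of 22548 probe sets with a log2 value over 5 in at least 3 arrays were tested. Of these, 10533 have 1 gene symbol, 378 several and 191 none. No detection calls were used, and no value column was left unused. limma 3.58.1 (R 4.3.3) fitted 1 mean per group over all 27 arrays (18 residual degrees of freedom), with Benjamini-Hochberg adjustment per comparison over all tested probe sets and a threshold of 0.05. There were 14 comparisons: 6 of treated with untreated worms, 3 between doses, 1 between ages and 4 differences of responses. The number of arrays limits the precision. On simulated data for 2.0 mM HF at 3 days, over 11102 probe sets, limma recovered 64 of 100 changes of 0.5 and 99 of 100 changes of 1, with 13 false among 176 calls. In the data 60.9% of all tested passed in that comparison. With far fewer changes the adjustment was stricter in the simulation, so its recovery does not stand for that of the data.

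Members and gene lists were chosen with earlier results of these data known. Named with values are the up to 6 largest called rises and falls per comparison (up to 5 for differences of responses), members called in opposite directions at the doses of 1 experiment, genes with several probe sets and members called in no treatment. The comparisons of both doses with untreated worms share those control arrays. Alternatives were other filters, scalings and fits, leaving out each array, and a replicate block. Figures were drawn with matplotlib 3.10.9.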

Additional observations from a re-analysis of the deposited data

Results flagged for a closer look

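Each change below, other than those named as descriptions, passed the test of the difference between 2 responses in limma, given on the log2 scale with its adjusted p. For 0.2 mM HF the response at 11 days minus that at 3 days was 0.95 for ugt-13 (0.0047), 0.78 for ugt-25 (0.003) and 0.45 for ugt-9 (0.035), the last lost in 11 of 19 alternatives. It was -1.12 for ugt-44 (1.4e-06), -0.88 for ugt-23 (0.00057) and -0.77 for ugt-6 (3.7e-05). The 2 probe sets of ugt-48 gave -0.71 (0.0057) and -0.66 (0.0038). For 2.0 mM HF it was 0.46 for ugt-66, -1.96 for ugt-29 (2e-06) and -1.92 for ugt-25 (5.2e-08). The value of ugt-66 is a description with no p, since this gene passed the filter only through HF at 11 days. At the same dose the difference was -1.25 for ugt-2 (1.1e-06), -1.22 for ugt-62 (1e-06) and -1.22 for ugt-44 (1.3e-07). No array was over log2 5 for ugt-9 and ugt-13 in both HF experiments, for ugt-66 at 3 days, and for ugt-2 and ugt-6 at 11 days. The size of a change at such levels is uncertain.

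For 0.2 mM at 3 days the response to HF-HQ minus that to HF was 1.41 for ugt-9 and 0.77 for ugt-13. It was -1.21 for ugt-44 (4.4e-07), -0.97 for ugt-29 (0.006), -0.82 for ugt-22 (0.00024), -0.80 for ugt-16 and -0.61 for ugt-62 (0.0036). The values of ugt-9, ugt-13 and ugt-16 are descriptions with no p, since arrays of these comparisons brought these genes past the filter. No array of HF at 3 days was over log2 5 for ugt-9 or ugt-13, so the sizes of their differences are uncertain. For 2.0 mM it was 2.64 for ugt-18 (3.7e-06), and 0.72 (0.032) for the ugt-50 probe set 175566_s_at, the latter lost in 6 of 20 alternatives. The ugt-50 probe set 194023_s_at gave 0.59, a description with no p, since the 2.0 mM HF-HQ arrays helped to bring it past the filter. The difference at 2.0 mM was -3.13 for ugt-63 (5.2e-12), -1.70 for ugt-17 (1.3e-07), -1.66 for ugt-22 (1.8e-08) and -1.54 for ugt-25 (1.5e-06). For the ugt-46 probe set 173204_s_at, 1 of 2 of that gene, it was -1.62 (4.6e-08).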

How the results depend on the processing

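Of 170 named changes, 138 kept their call and direction under every alternative run and 32 changed their call, and none reversed. Counts below are ugt probe sets called. With a filter at log2 over 7, which leaves 24 of the 41, they were 11 and 15 for 0.2 and 2.0 mM HF at 3 days, 7 between these doses, 6 for 2.0 mM HF at 11 days, 8 between the 11-day doses, 13 between the HF-HQ doses, 22 with age, 8 for the age difference at 0.2 mM and 9 for the preparation difference at 0.2 mM. Without probe sets marked _s_at, which leaves 27, they were 14 and 16 for HF at 3 days, 13 for 2.0 mM HF-HQ, 12 between its doses, 23 with age, 15 for the age difference and 17 for the preparation difference at 2.0 mM. Both alternatives count fewer probe sets by construction. For 0.2 mM HF-HQ, centring gave 4 and a fit of only the arrays compared gave 1, and that fit gave 11 between the HF-HQ doses. The cause was not tested.

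Leaving out 1 array at a time gave 19 to 22 and 22 to 26 for 0.2 and 2.0 mM HF at 3 days and 9 to 10 between them. At 11 days limma gave 0 to 3 (main 3; 9 at an unadjusted p under 0.05 where it gave 0), 6 to 10, and 10 to 11 between doses. For HF-HQ it gave 2 to 6, 17 to 20, and 20 to 23 between doses. It gave 36 to 37 with age, 10 to 14 and 22 to 26 for the age differences, and 16 to 19 and 27 to 30 for the preparation differences.

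The replicate numbers showed no general pairing of the arrays: 3 of 27 correlations of same-numbered deviations were over 0.1 and 16 were negative. Between untreated and 2.0 mM HF-HQ arrays they were 0.432, 0.116 and -0.0353 for replicates 1, 2 and 3. The other one over 0.1 was 0.21, for replicate 1 between the HF doses at 3 days. With the number as a block the counts were 22, 25 and 12 for HF at 3 days (0.2 mM, 2.0 mM, between doses), 2, 9 and 14 at 11 days, 2, 20 and 21 for HF-HQ, 36 with age, 13 and 23 for the age differences, and 16 and 29 for the preparation differences. Chosen after seeing the data, a count of only those over log2 5 in a compared group gave 19 and 21 for HF at 3 days and 17 for 2.0 mM HF-HQ, and a fit without the 0.2 mM HF-HQ arrays gave 23, 25 and 22.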
